A study of Danio rerio with 4 samples.

Results

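The injury response of hearts that lack the LEN enhancer was read from 2 of the 4 RNA-seq libraries of the study, the LEN mutant heart at 3 days post-amputation (3 dpa) and the LEN mutant heart without injury. Both were chosen by their labels. Each is a single library of adult zebrafish hearts of the Ekkwill strain, genotype LEN[delta]/[delta], and the labels do not give how many hearts went into it. The study's question, from its title, concerns leptin b (lepb) and LEN, the enhancer linked to it that becomes active during regeneration. A wild-type (LEN+/+) uninjured library and a wild-type 3 dpa library of the same strain were used for comparison.

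After part of the ventricle is removed, a zebrafish heart regrows muscle from cardiomyocytes that loosen their contractile apparatus and divide. In the first days the epicardium and fibroblasts lay down a provisional matrix of fibronectin and collagens, and leukocytes enter the wound. Leptin b is a secreted hormone of the fish leptin family that is known to be induced in the injured heart, mainly in endocardium, and it signals through a receptor coupled to Jak and Stat proteins.

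The 4 libraries held 31618442 to 35026983 counts over 32520 genes. With 1 library per group there was no replicate check and no test between hearts, so each value below describes these libraries. A gene was called, and is said to have risen or fallen, when its log2 ratio of 3 dpa to uninjured was at least 1 in size and the exact 95% counting interval of that ratio excluded equal abundance. Ratios are on a log2 scale of counts per 1000000 (CPM), with a prior count of 2 and TMM library scaling. Intervals cover counting error only. Counts are given in the order uninjured and then 3 dpa.

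The defining heart muscle markers were abundant in all 4 libraries, at a summed 69545 and 76117 CPM in the uninjured wild type and mutant and 39906 and 40720 CPM at 3 dpa. The 13 mitochondrially encoded genes took 16.1% and 16.7% of the uninjured libraries and 11.3% and 11.9% of the 3 dpa libraries. Ionocyte markers of gill or skin summed to 18.3 CPM in the mutant 3 dpa library and to 1.07 to 2.08 CPM in the other 3. Liver markers summed to 360 CPM in the wild-type uninjured library and to at most 0.470 CPM elsewhere, so the wild-type ratios of liver genes rest on that library. Beyond leaving the lists of other tissues out of the counts of called genes, as given with those lists, their part in the results was not tested.

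The genotype check was lepb itself. It had 2 counts in the uninjured mutant library and 2 at 3 dpa, which is 0.0627 CPM (95% Wilson interval 0.0172 to 0.229) and 0.0575 CPM (0.0158 to 0.210). The wild-type libraries held 2 and 78 counts, or 2.23 CPM (1.78 to 2.78) at 3 dpa. Only the wild-type 3 dpa library was high. The check thus says nothing of the uninjured libraries, where lepb had 2 counts in both genotypes. No fold is given for the mutant because both its counts are under the floor of 3. The other leptin gene, lepa, had 0 and 13 counts in the mutant, 3.197-fold higher at 3 dpa when set against the floor of 3 counts, and 1 and 24 counts in the wild type. Both leptin genes stayed under the filter of 1 CPM in the mutant. The leptin receptor gene lepr was not called in the mutant, with 1063 and 1180 counts and a log2 ratio of -0.29, against 787 and 1125 counts and 0.10 in the wild type.

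Of 32520 genes, 15966 reached 1 scaled CPM in either mutant library, and 16554 did not. Among those that did, 2351 were called higher at 3 dpa (14.7%) and 898 lower (5.62%). The counts of each list below are to be read against these shares. Genes under 1 scaled CPM in the uninjured mutant library passed the filter only through the 3 dpa library, so they had to be higher there. Without the condition on the counting interval the numbers were the same, so these calls rest on the ratio threshold alone. A ratio of at least 4-fold was reached by 800 of the genes that rose and 48 of those that fell. Genes called higher took 3.08% of the uninjured library and 13.03% of the 3 dpa library, while genes called lower took 21.0% and 10.8%. Most rises were thus of genes with few counts before injury, and the falls included a smaller number of abundant genes. The median log2 ratio over all genes was 0.04. Rises made up 72.4% of the calls, against 91.2% with total counts only, 66.9% with DESeq2 size factors and 61.3% with upper-quartile factors. Total counts moved the median of all genes to 0.36.

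**Figure D1:**
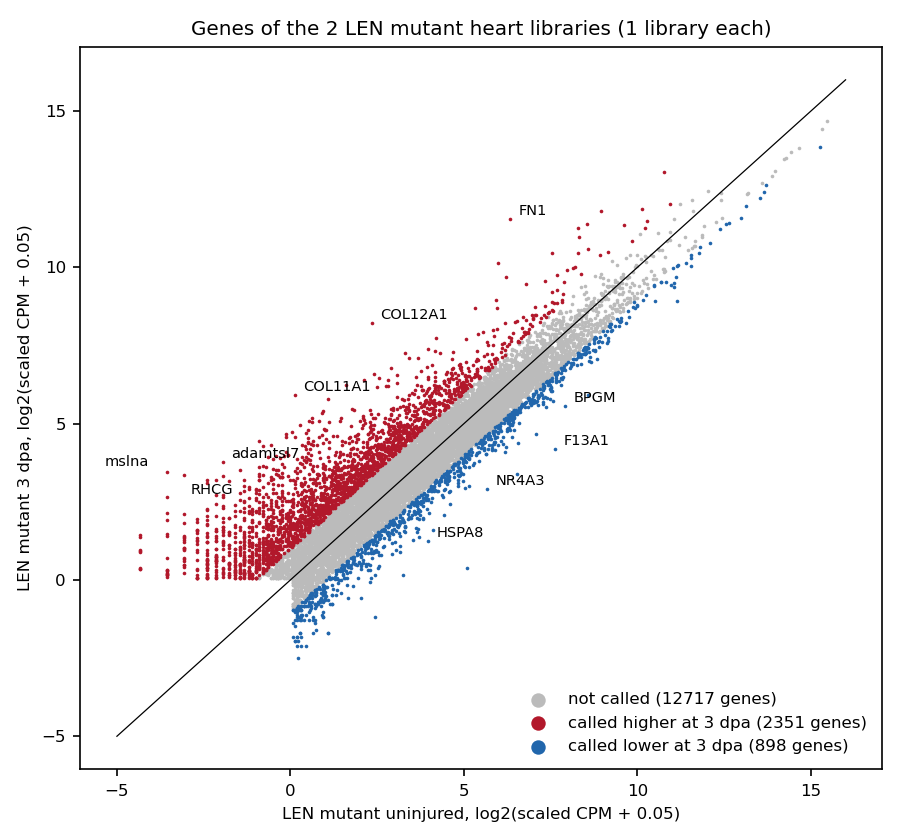
Each point is 1 of 15966 genes, with its level in the LEN mutant uninjured library on the x axis and in the LEN mutant 3 dpa library on the y axis, both as log2(scaled CPM + 0.05). The line marks equal levels; the 2351 genes called higher lie above it mostly at low and middle levels, and the 898 called lower reach up to the most abundant heart muscle genes.

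Among the 12 largest rises at 10 CPM or more, mslna (log2 ratio 6.87) and a copy of RHCG (6.31) stood highest, and matrix genes followed. COL12A1 (ENSDARG00000019601), a collagen that decorates the surface of collagen fibrils, rose from 144 to 11473 counts in the mutant and from 124 to 10248 in the wild type. Its log2 ratio was 5.86 (counting interval 5.64 to 6.12), a 58.1-fold rise. COL11A1, a minor fibrillar collagen chain, went from 30 to 2353 counts, a log2 ratio of 5.78, beside 55 and 3184 in the wild type. The larger mover of the 2 genes named FN1 (ENSDARG00000019815), encoding fibronectin, went from 2301 to 115056 counts, a 36.9-fold rise with a log2 ratio of 5.204, beside 3324 and 109605 in the wild type. These 3 genes were high in both 3 dpa libraries and low in both uninjured ones.

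Others of the 12 were of varied kinds. The gene adamtsl7, of a family of secreted ADAMTS-like matrix proteins, went from 6 to 526 counts in the mutant and from 25 to 578 in the wild type. SLC43A2 (ENSDARG00000061120), a neutral amino acid transporter gene, went from 14 to 840 and from 45 to 763. The gene angptl2a, for an angiopoietin-like secreted protein, went from 18 to 774 and from 28 to 782. The cell division gene cdca3 went from 25 to 987 in the mutant and from 56 to 958 in the wild type, and LIN7B, a scaffold protein gene of cell junctions, from 9 to 442 and from 6 to 397. MYADM (ENSDARG00000038709) had log2 ratios of 5.06 in the mutant and 4.08 in the wild type, and si:ch211-266i6.3 had 4.70 and 3.65. The remaining 2 of the 12, mslna and a copy of RHCG, were high only in the mutant 3 dpa library and are described with the ionocyte genes.

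The largest falls were smaller. F13A1 (ENSDARG00000045453), which encodes the clot-stabilizing coagulation factor XIII A chain and marks resident macrophages, fell from 5665 to 710 counts in the mutant and from 7516 to 1045 in the wild type. That was a 10.8-fold fall, with a log2 ratio of -3.43 (-3.55 to -3.32). Another gene listed for this chain, f13a1b, rose from 991 to 4264 counts, and from 1366 to 4101 in the wild type. It was named after its values were seen. NR4A3, a nuclear receptor gene of the early response class, fell from 1450 to 291 counts, a log2 ratio of -2.75, against 1059 and 466 in the wild type. BPGM, which makes the red cell metabolite 2,3-bisphosphoglycerate, fell from 6920 to 1819 counts in the mutant and from 5309 to 1269 in the wild type. The 4 libraries divided by injury for all 3 of these genes that fell.

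Also among the 12 falls were gsdf, a gonadal growth factor gene of the TGF-beta superfamily, from 489 to 116 counts, and nme2b.2, a nucleoside diphosphate kinase gene, from 3846 to 982. The creatine kinase gene ckmb fell from 618 to 161, ZDHHC2, a palmitoyltransferase gene, from 374 to 99, and arhgef9a, a guanine nucleotide exchange factor gene, from 330 to 93. Their wild-type log2 ratios were also below 0, between -2.51 and -1.26. A copy of HSPA8 (ENSDARG00000037403) behaved otherwise, with 450 and 90 counts in the mutant and 90 and 105 in the wild type, so that only the mutant uninjured library was high. The remaining 3 of the 12 carry no symbol, and 2 of them are given with the differences from wild type.

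The contractile apparatus lost abundance. Of 27 heart muscle contractile genes past the filter, 0 rose and 14 fell, with a median log2 ratio of -1.08 beside 0.04 over all genes. With total counts only, 0 rose and 5 fell, and the median was -0.76. Their summed share of the library went from 10.21% to 5.63% in the mutant and from 9.32% to 5.54% in the wild type. The ventricular myosin heavy chain gene, listed as MYH7, fell from 1126152 to 568784 counts, a log2 ratio of -1.42, against 1007701 and 545486 in the wild type. MYL7, the myosin regulatory light chain gene, fell from 382933 to 245739, a log2 ratio of -1.08, a call that was lost with total counts only. The Z-disc gene ldb3b had the lowest ratio of the list, -1.69, with 61213 and 25699 counts. At the other end stood MYH6 (ENSDARG00000079564), a myosin heavy chain gene, at -0.20 and the sarcomere scaffold gene obscna at 0.44, neither of them called. In whole hearts, fewer muscle cells and less of this RNA per cell cannot be told apart.

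Calcium handling followed. Of 25 cardiomyocyte calcium and electrical genes, 2 rose and 9 fell (3 with total counts only), with a median of -0.79. The sarcoplasmic calcium pump gene atp2a2a fell from 231523 to 119774 counts (log2 ratio -1.39, wild type -1.20), and pln1, encoding its inhibitor phospholamban, from 103254 to 62874 (-1.15, wild type -0.92), the latter not called with total counts only. The pair that rose were camk2d1, a calcium-dependent kinase gene, from 164 to 783 counts, and the connexin gene gjc4b from 169 to 719. HCN4 (ENSDARG00000061685), a pacemaker channel gene, fell from 255 to 80 counts in the mutant against 25 and 12 in the wild type. Its 2 mutant counts were both above its 2 wild-type counts.

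Among 20 cardiac transcription factors 0 rose and 2 fell, with a median of -0.51. The pair that fell were IRX1 (ENSDARG00000101831), from 1813 to 1039 counts, and TBX5 from 3629 to 2376 in the mutant beside 1922 and 1927 in the wild type, and neither was called with total counts only. Of 21 natriuretic peptide and cardiomyocyte stress genes, 2 rose and 2 fell (9.52% each), beside 14.7% and 5.62% of all tested genes. The median of -0.11 became 0.20 with total counts only. ANKRD1 (ENSDARG00000075263), a stretch-responsive titin-binding protein gene, rose from 39 to 1084 counts, a log2 ratio of 4.30, against 19 and 571 in the wild type. The atrial peptide gene nppa was not called, at 88624 and 137926 counts and a log2 ratio of 0.20.

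Genes of the epicardium, fibroblasts and matrix went the other way. Of 23 epicardial genes 12 rose and 0 fell, with a median of 1.09, and of 25 fibroblast and mural genes 16 rose and 1 fell, with a median of 1.31. The epicardial transcription factor gene wt1b rose from 122 to 1417 counts in the mutant, a log2 ratio of 3.08 (2.83 to 3.38), and from 130 to 1668 in the wild type. ALDH1A2, the enzyme gene of retinoic acid synthesis in activated epicardium, rose from 5894 to 23880 counts and from 5903 to 25774. Both genes were several-fold higher in the 3 dpa libraries than in either uninjured one. POSTN (ENSDARG00000104267), encoding the matrix protein periostin of activated fibroblasts, rose from 1726 to 19175 counts, a log2 ratio of 3.03. The mural gene RGS5, of pericytes, fell from 10322 to 5867, a log2 ratio of -1.25 that was not called with total counts only, and from 12269 to 4537 in the wild type.

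Collagen genes rose as a group. Of 31 collagen chain genes 18 rose and 0 fell, with a median of 1.66, and their summed share went from 0.290% to 1.79% of the mutant library. COL1A1 rose from 14276 to 138272 counts and COL1A2 from 10753 to 104606, both with a log2 ratio of 2.84. The basement membrane genes col18a1a and col15a1b stayed uncalled, at -0.52 and -0.36. Of 33 collagen assembly and crosslinking enzymes 21 rose and 0 fell, with a median of 1.38. The prolyl isomerase gene FKBP9, for a chaperone of the endoplasmic reticulum, rose from 488 to 4590 counts, and PPIB, another such isomerase, from 3682 to 12963. The procollagen protease gene ADAMTS14 had 2 and 52 counts in the mutant, a log2 ratio of 3.44 (2.34 to 7.34), whereas P4HA2 (-0.03) and P3H3 (0.02), both collagen hydroxylase genes, were not called.

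Of 50 noncollagen matrix glycoproteins 20 rose and 2 fell, with a median of 0.61. Beside FN1, CTHRC1 (ENSDARG00000087198), a secreted protein gene of activated fibroblasts, rose from 6 to 387 counts and from 22 to 492 in the wild type. The abundant second FN1 gene (ENSDARG00000006526) rose from 49846 to 331693 counts, a log2 ratio of 2.30. The pair that fell were acana, for the cartilage proteoglycan aggrecan, from 2491 to 1588, and elnb, for the elastin of the outflow tract in fish, from 11156 to 7251, and with total counts only neither was called. Of 42 matrix proteases and inhibitors 17 rose and 2 fell, with a median of 0.48. The gene plaua, for a plasminogen activator, rose from 5 to 208 counts (log2 ratio 4.53, wild type 2.61). MMP2, a gelatinase gene, rose from 6482 to 19227. ADAMTS5, for an aggrecan-cleaving protease, fell from 255 to 155 in the mutant (not called with total counts only) beside 114 and 165 in the wild type.

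**Figure D2:**
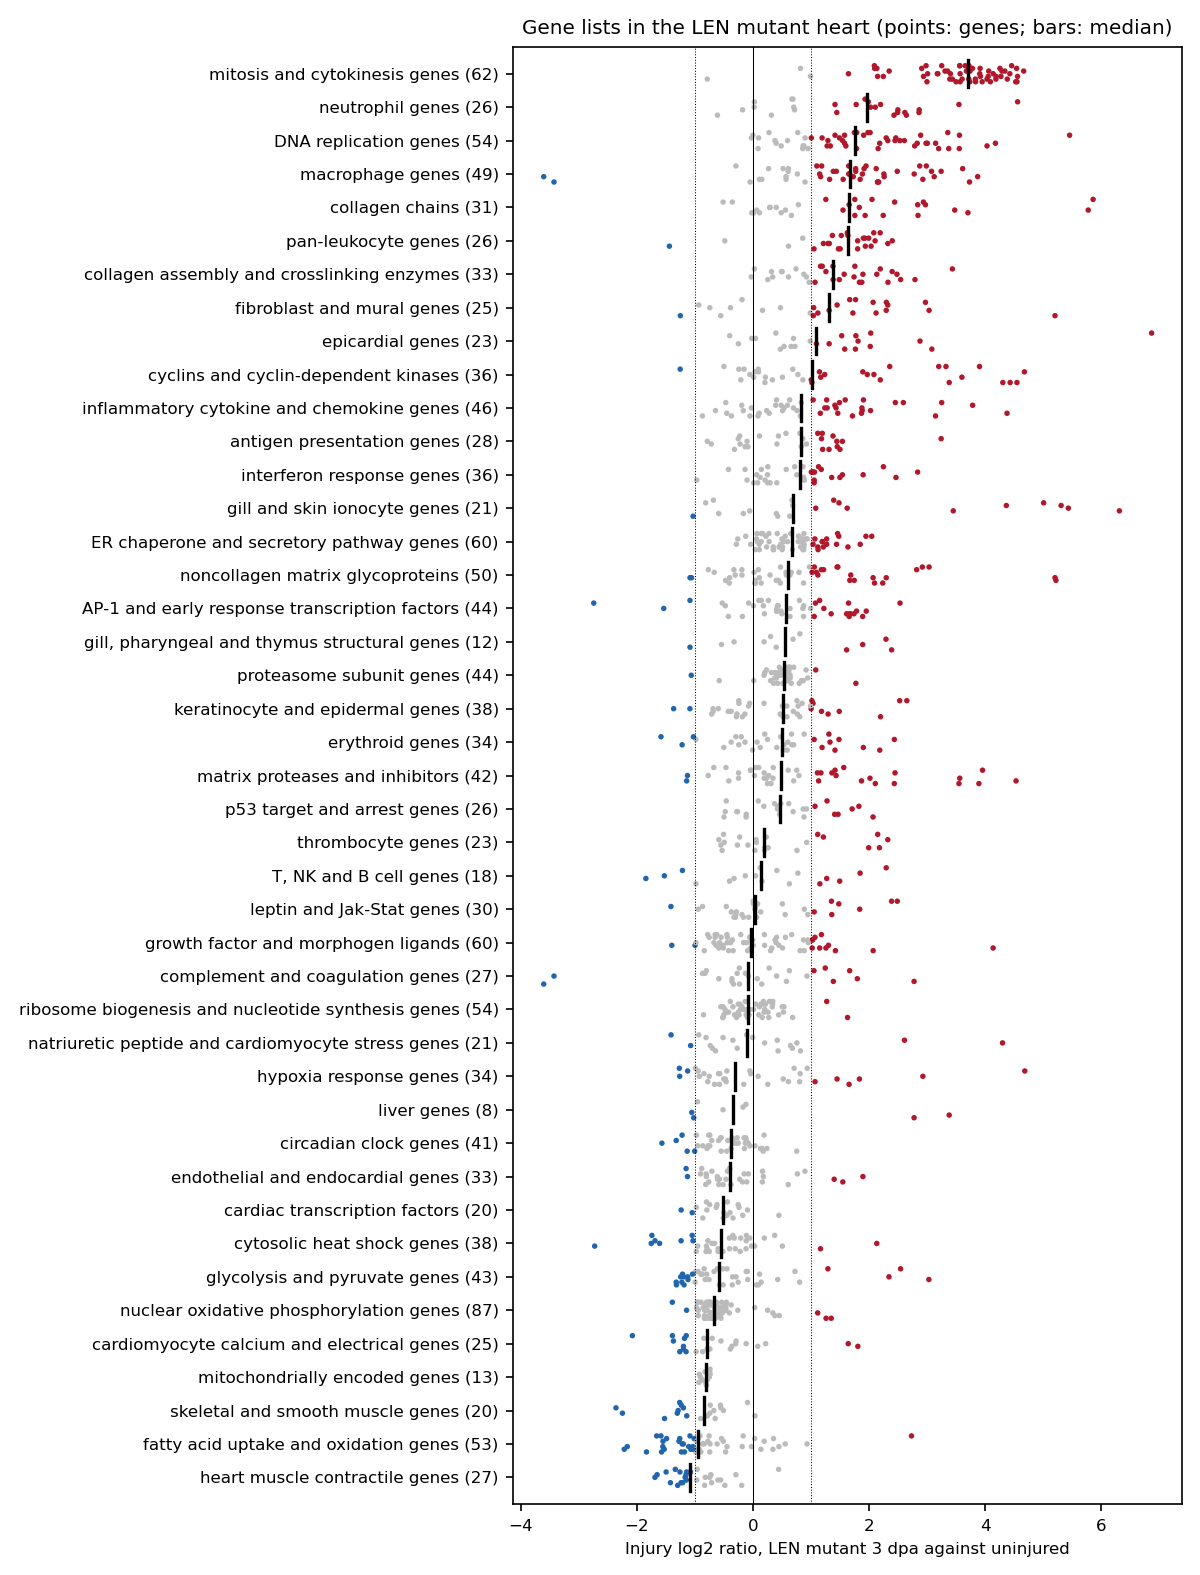
Injury log2 ratios in the LEN mutant (x axis) of the genes of 43 lists (rows, with the number past the filter), in red where called higher, blue where called lower and gray where not called; black bars are medians. Mitosis genes sit at the top with a median of 3.70 and heart muscle contractile genes at the bottom with -1.08; dotted lines mark log2 ratios of -1 and 1.

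The strongest group rise was that of cell division. Of 62 mitosis and cytokinesis genes 59 rose and 0 fell, with a median log2 ratio of 3.70. Their share of the library went from 0.011% to 0.132% in the mutant and from 0.015% to 0.122% in the wild type. TOP2A, the DNA-untangling enzyme gene of dividing cells, rose from 123 to 3264 counts, a log2 ratio of 4.27, against 220 and 3261 in the wild type. The proliferation marker gene mki67 rose from 166 to 3408 counts (3.91), against 305 and 2817. The mitotic kinesin gene kif20a had the highest ratio of the list, 4.66, with 25 and 915 counts. At 0.872 scaled CPM uninjured, kif20a passed the filter only through the 3 dpa library. TOP2A and mki67, at 4.29 and 5.79 scaled CPM uninjured, passed it in both mutant libraries. WEE1, the inhibitory kinase of mitotic entry, missed the threshold at 0.82, and CIT (ENSDARG00000088825), for citron kinase, was at -0.79. The other CIT gene (ENSDARG00000089856), named after its values were seen, rose from 73 to 446 counts, a log2 ratio of 2.15.

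The wild-type median of the same 62 genes was 2.96, and 16 of them had a mutant ratio called higher than the wild-type one, with 0 called lower. Over all genes this difference was called higher for 2.87% and lower for 1.41%. For TOP2A the 3 dpa counts of mutant and wild type, 3264 and 3261, were closer together than the uninjured counts, 123 and 220. For kif20a they were 915 and 818 at 3 dpa and 25 and 37 without injury. Neither gene was among the 16, with differences of 0.81 and 0.67. The gene mki67 was among them, with a difference of 1.12. Its mutant and wild-type counts were 3408 and 2817 at 3 dpa and 166 and 305 without injury.

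DNA replication genes rose as well, 39 of 54, with 0 falls and a median of 1.76. The replication clamp gene PCNA rose from 963 to 4899 counts (log2 ratio 1.91), and MCM10, for a replication initiation factor, from 3 to 113 (4.18, interval 3.21 to 7.10). One of the 2 genes named RRM2 (ENSDARG00000020711), for a ribonucleotide reductase subunit, had 0 and 99 counts in the mutant, beside 1 and 7 in the wild type. It was 24.3-fold higher against the floor, and the lower counting bound of its log2 ratio was 4.28. Only the mutant 3 dpa library was high for this ID. Of the mutant libraries, MCM10 and this RRM2 gene passed the filter through the 3 dpa library alone, so both had to be higher there. The other RRM2 gene, named after its values were seen, rose from 44 to 438 counts in the mutant and from 53 to 478 in the wild type. DUT, for the dUTP-clearing enzyme, and tipin, for a fork protection factor, were not called, at -0.03 and 0.00. Of 36 cyclins and cyclin-dependent kinases 19 rose and 1 fell, with a median of 1.01. CCNB1, the mitotic cyclin gene, rose from 33 to 1201 counts, a 25.6-fold rise with a log2 ratio of 4.68, and CDK1, its partner kinase gene, from 40 to 1320. The gene that fell was cdkn1ca, a cyclin-dependent kinase inhibitor gene, from 57 to 31 counts (not called with total counts only). CCND1, the G1 cyclin gene, was not called at 0.68.

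Among 26 p53 target and arrest genes 7 rose (11 with total counts only) and 0 fell, with a median of 0.47. The antiproliferative gene BTG2 rose from 676 to 3250 counts in the mutant and went from 2748 to 5271 in the wild type. GADD45B (ENSDARG00000013576), a stress sensor gene, rose from 77 to 445 counts against 320 and 510. For both genes the mutant uninjured library was the low one of the 4.

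**Figure D3:**
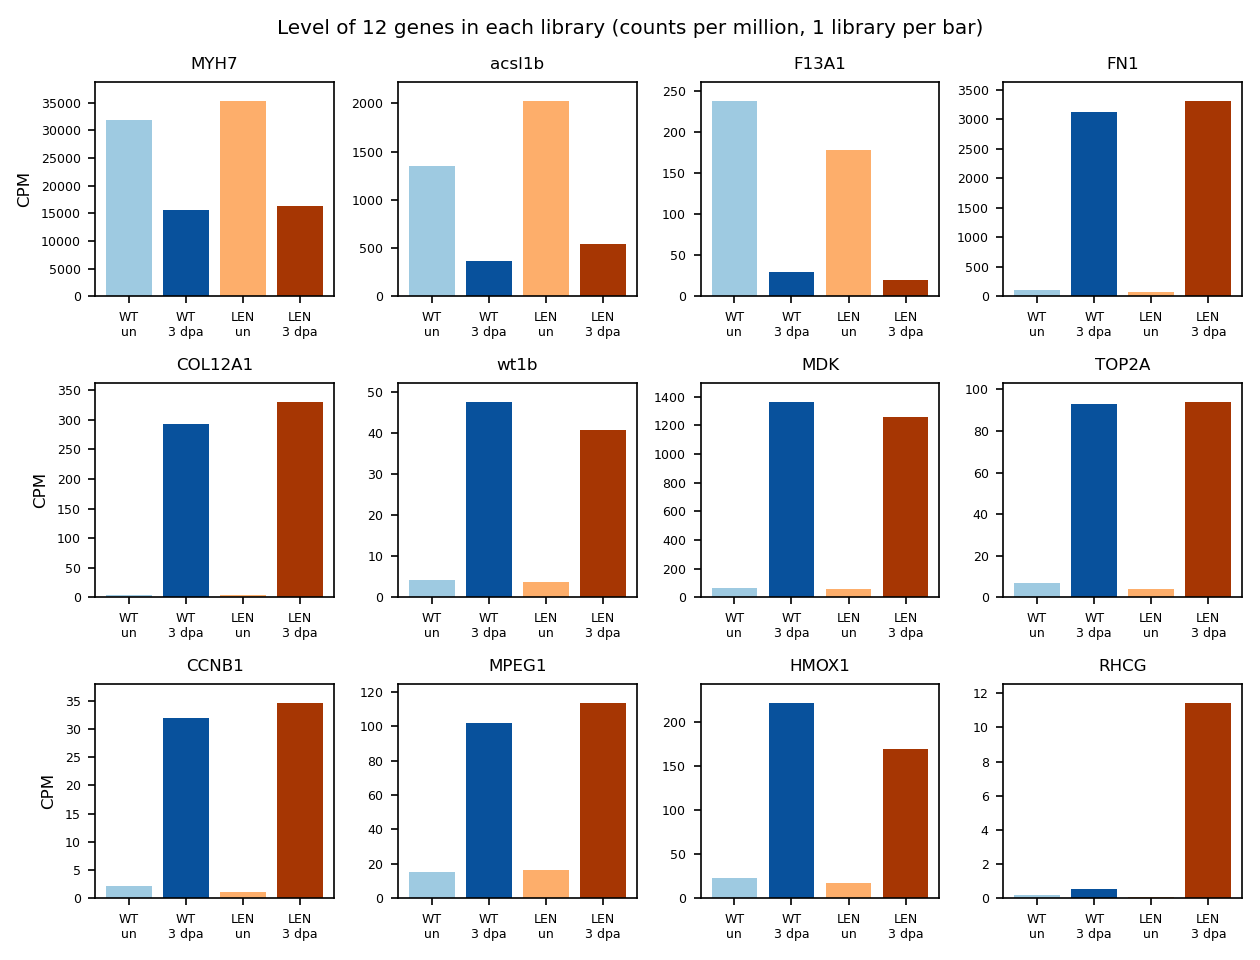
Bars give the level of 12 genes in CPM in each library, 1 library per bar, for wild type (WT, blue) and LEN mutant (LEN, orange), uninjured (un, light) and at 3 dpa (dark). MYH7, acsl1b and F13A1 were lower in both 3 dpa libraries, the 8 genes from FN1 to HMOX1 were higher in both, and RHCG (ENSDARG00000003203) was high only in the mutant 3 dpa library.

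Of 30 leptin and Jak-Stat genes 7 rose (23.3%) and 1 fell (3.33%), beside 14.7% and 5.62% of all tested genes. The median of 0.03 turned below 0 with DESeq2 size factors (-0.03) and upper-quartile factors (-0.09). Ligand genes of the interleukin-6 family differed in level. The gene il11a was not called, with 276 and 550 counts in the mutant (log2 ratio 0.55) and 632 and 449 in the wild type. Lower counts were those of m17 and il11b. The cytokine gene m17 had 4 and 41 counts in the mutant and 1 and 38 in the wild type, and il11b had 14 and 52 against 2 and 42. Receptor genes moved apart, with il6r up from 70 to 506 counts (log2 ratio 2.39, wild type 0.96), lifrb up from 202 to 985 (1.84) and lifra down from 544 to 275 (-1.42). The wild-type counts of lifra were 55 and 65, so both mutant libraries were above both wild-type ones. The shared signalling genes il6st (-0.08) and JAK1 (0.00) were not called. SOCS3 (ENSDARG00000025428), a Stat3 target that inhibits Jak kinases, rose from 3665 to 12722 counts in the mutant and went from 10545 to 12195 in the wild type. It and il11a, il11b and lifrb were named after their values were seen.

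AP-1 and early response transcription factors included 15 rises and 3 falls among 44, with a median of 0.57. In the wild type 4 rose and 2 fell, where 13.2% of all genes rose and 5.2% fell. CEBPB, of the C/EBP inflammatory factors, rose from 444 to 3493 counts (log2 ratio 2.53, wild type 1.76). ATF3, a stress-induced repressor gene, fell from 1998 to 930 (-1.54, wild type -1.26). The difference of ratios between genotypes was called higher for 7 members and lower for 2. Examples named after their values were seen are egr1, with 555 and 2393 counts in the mutant and 1676 and 2841 in the wild type, CEBPD with 1160 and 5026 against 4090 and 6296, and FOS with 191 and 606 against 683 and 901. In each of these 3 genes the mutant uninjured library was the lowest, at less than the wild-type uninjured count by over 2-fold, while the 3 dpa libraries lay closer together.

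Growth factor and morphogen ligands showed 11 rises (18.3%) and 2 falls (3.33%) among 60, beside 14.7% and 5.62% of all tested genes. With total counts only 17 rose, 1 fell and the median of -0.04 became 0.28. The heparin-binding growth factor gene MDK (ENSDARG00000036036), midkine, rose from 1829 to 43678 counts, a 17.6-fold rise with a log2 ratio of 4.14, against 2156 and 47737 in the wild type. Its copy ENSDARG00000020708 fell from 648 to 438, just past the threshold, and lost the call with total counts only or a prior count of 10. The granulin gene grna rose from 1763 to 10038 counts (2.07), and BMP10 (ENSDARG00000109233), a cardiac BMP ligand gene, fell from 6545 to 3358 (-1.40). Of 46 inflammatory cytokine and chemokine genes 22 rose and 0 fell, with a median of 0.82. The neutrophil attractant gene cxcl8a had 2 and 102 counts (log2 ratio 4.38, 3.34 to 8.30), and the chemokine receptor gene CCR9 (ENSDARG00000055186) rose from 20 to 403. Lower ratios, not called, were those of ccl20b (-0.87) and CXCR3 (-0.65).

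Leukocyte genes rose broadly. Of 49 macrophage genes 35 rose and 2 fell (median 1.66), of 26 neutrophil genes 17 rose and 0 fell (median 1.958), and of 26 pan-leukocyte genes 22 rose and 1 fell (median 1.63). The pore-forming macrophage gene MPEG1 (ENSDARG00000055290) rose from 518 to 3942 counts and csf1ra, the macrophage growth factor receptor gene, from 614 to 3215, against 385 and 1930 in the wild type. The highest macrophage ratios were those of grna.2, with 21 and 448 counts (3.87), and a copy of MFAP4 (ENSDARG00000090783) with 52 and 964 (3.73). The 2 macrophage genes that fell were both named F13A1. Within the neutrophil list cxcr1, the chemokine receptor gene, had 3 and 148 counts (4.56, 3.61 to 7.48), whereas lyz, for lysozyme, was not called at 93 and 111 (-0.18). The integrin gene itgb2, shared by leukocytes, rose from 1217 to 5127 counts and from 1174 to 4151 in the wild type.

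Lymphoid and interferon lists moved less evenly. Of 18 T, NK and B cell genes past the filter, out of 40 IDs, 5 rose (27.8%) and 3 fell (16.7%), with a median of 0.14. The T cell receptor zeta chain gene cd247 fell from 400 to 149 counts and the interleukin-2 receptor gene il2rb from 148 to 68, while the B cell gene cd22 rose from 23 to 162. Of 28 antigen presentation genes 11 rose and 0 fell (median 0.82), led by the cathepsin gene ctss2.1 from 238 to 3071. Of 36 interferon response genes 15 rose and 0 fell (median 0.81), against 9 rises and 1 fall with DESeq2 size factors. The antiviral gene mxc rose from 10 to 111 counts against 48 and 271 in the wild type, and RSAD2, another antiviral gene, was at 240 and 165 (-0.97) against 303 and 494 (0.29).

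Blood and clotting genes were mixed. Of 34 erythroid genes 9 rose (26.5%) and 3 fell (8.82%), with a median of 0.50. The globin gene hbaa2 rose from 8903 to 54834 counts (log2 ratio 2.18) and hbaa1 from 35650 to 110205 (1.19). CREG1 fell from 11088 to 5001. How much blood each heart retained was not recorded in the labels. Of 23 thrombocyte genes 6 rose (26.1%) and 0 fell, with a median of 0.20, and itga2b and mpl, which define that lineage, were at 0.06 and 0.03. The thrombocyte list shares 3 IDs with the pan-leukocyte list. Of 27 complement and coagulation genes 6 rose (22.2%) and 2 fell (7.41%), and the median of -0.08 became 0.23 with total counts only. The 2 that fell were the F13A1 genes already counted in the macrophage list, while f13a1b was among those that rose. The complement inhibitor gene cfh rose from 89 to 425, and vwf, for von Willebrand factor, was at 18272 and 23415 (-0.08). Of 33 endothelial and endocardial genes 3 rose (9.09%) and 2 fell (6.06%), beside 14.7% and 5.62% of all tested genes. Their median was -0.40. FLT4, a VEGF receptor gene, rose from 133 to 676, angpt2b, for an angiopoietin, from 36 to 147, and NOTCH1 (ENSDARG00000052094) fell from 10929 to 6654, a call that was lost with total counts only.

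The medians of the energy metabolism lists lay below that of all genes, and most members were not called. Of 53 fatty acid uptake and oxidation genes 1 rose and 22 fell (10 with total counts only), with a median of -0.95, and their share of the library went from 1.17% to 0.619%. The acyl-CoA synthetase gene acsl1b fell from 64528 to 18768 counts, a 4.66-fold fall with a log2 ratio of -2.22 (wild type -2.16). ACADVL, of the first step of long-chain oxidation, fell from 57178 to 26811, and MLYCD, which removes the malonyl-CoA brake on oxidation, from 1024 to 307. The gene that rose was oxct1a, of ketone body use, from 4 to 49 counts. All 13 mitochondrially encoded genes lay between -0.93 and -0.74, below the median of all genes and uncalled (4 fell with upper-quartile factors). The 101 genes of any kind that averaged 1000 CPM or more had a median of -0.79. Of 87 nuclear oxidative phosphorylation genes 3 rose and 2 fell (7 with DESeq2 size factors), with a median of -0.67. The muscle-type cytochrome oxidase subunit gene cox7a1 fell from 8810 to 4550 counts, while cox6a1, of the same complex, rose from 612 to 2113.

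Glycolysis and pyruvate genes showed 4 rises and 10 falls among 43 (2 falls with total counts only), with a median of -0.58. GAPDH, a core glycolytic enzyme gene, fell from 339631 to 183802 counts (log2 ratio -1.32), whereas HK2, the inducible hexokinase gene, rose from 220 to 1749 (2.54). Of 34 hypoxia response genes 6 rose (17.6%) and 3 fell (8.82%), beside 14.7% and 5.62% of all tested genes. With total counts only 10 rose, 0 fell and the median of -0.31 became 0.01. The heme oxygenase gene HMOX1 rose from 571 to 5899 counts (2.93), against 734 and 7756 in the wild type. DDIT4, a stress-induced inhibitor of mTOR signalling, rose from 28 to 1032 counts (4.68) against 311 and 913 (1.13). The mutant uninjured library held by far the lowest DDIT4 count, and the 3 dpa counts were close.

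Lists of protein production and turnover are read against the 14.7% of all tested genes that rose. Of 60 ER chaperone and secretory pathway genes 16 rose (29 with total counts only) and 0 fell, with a median of 0.66. KDELR3 (ENSDARG00000040912), a retrieval receptor gene, rose from 99 to 561 counts and ERO1A, an oxidase gene of disulfide formation, from 224 to 1176. Of 44 proteasome subunit genes 2 rose, or 4.55% (8 with total counts only), and 1 fell, with a median of 0.53. Of 54 ribosome biogenesis and nucleotide synthesis genes 2 rose, or 3.70%, and 0 fell, and the median of -0.08 became 0.23 with total counts only. The pair that rose, GART from 69 to 294 counts and ATIC from 137 to 451, act in purine synthesis. Of 38 cytosolic heat shock genes 2 rose and 8 fell (5 with total counts only), with a median of -0.56 against -0.09 in the wild type. The inducible chaperone gene hsp70l fell from 674 to 269 counts, against 510 and 364. The 2 genes that rose were both SERPINH1, the collagen chaperone of the ER. Of 41 circadian clock genes 0 rose and 5 fell (2 with total counts only), with a median of -0.38. The falls were 12.2% of the list, beside 5.62% of all tested genes. Among them was the clock output gene tefb, from 1185 to 640.

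**Figure D4:**
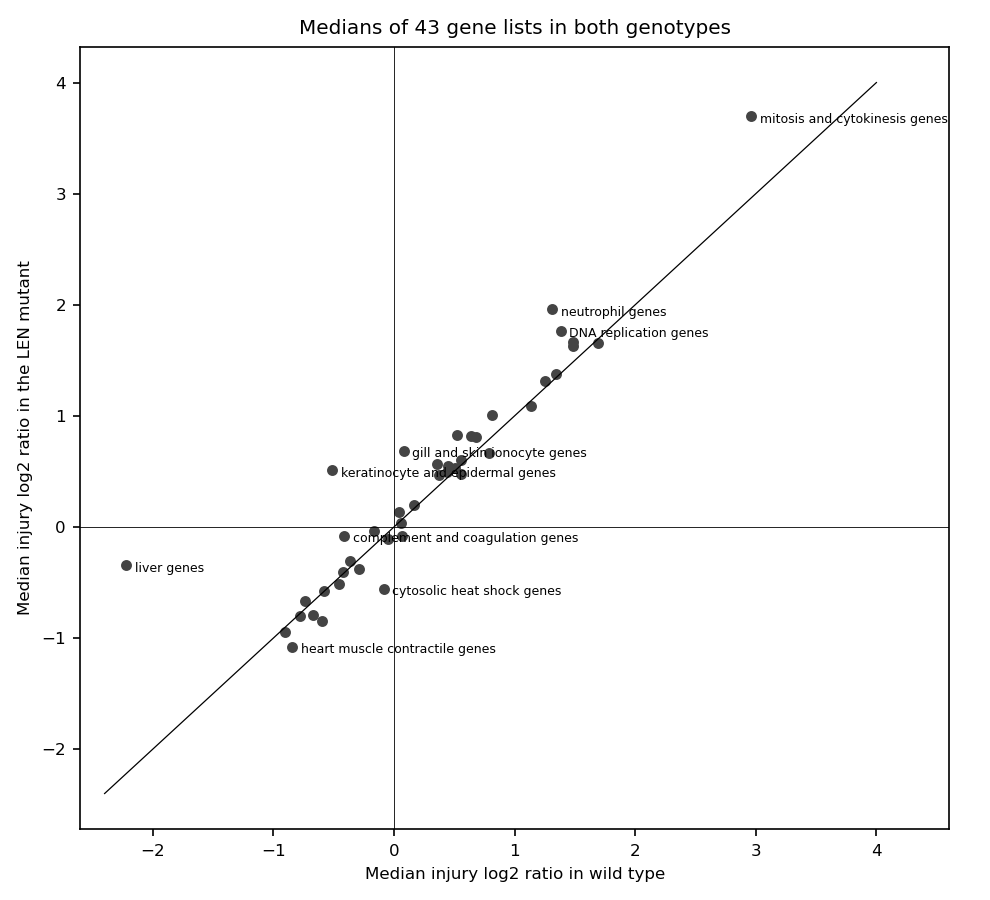
Each point is 1 of 43 gene lists, with its median injury log2 ratio in the wild type on the x axis and in the LEN mutant on the y axis; the line marks equal medians. Mitosis genes lie above the line at 2.96 and 3.70, and liver genes lie farthest to the left at -2.22 in the wild type.

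Genes of gill and skin ionocytes, salt- and acid-transporting epithelial cells, were detected in the mutant 3 dpa library. Of 48 such IDs 21 passed the filter, and of these 10 rose and 1 fell. Of the 10 that rose, 6 reached the filter level in the mutant 3 dpa library alone of the 4, so they had to be higher there and nothing is read from the count. Some listed genes, such as SLC4A1 (ENSDARG00000012881) of red cells, are also expressed outside ionocytes. The ammonia channel gene RHCG (ENSDARG00000003203) had 2 and 397 counts in the mutant and 7 and 19 in the wild type, a log2 ratio of 6.31 (5.33 to 10.24). RHBG, its relative, had 5 and 358 counts against 11 and 16. Both were high only in the mutant 3 dpa library. The calcium channel gene TRPV6 had 1 and 38 counts against 2 and 2, and slc12a10.2, a sodium chloride cotransporter gene, 5 and 97 against 5 and 1.

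Ionocyte regulators were present at low counts. The transcription factor genes foxi3a, foxi3b and GCM2 reached 15, 20 and 22 counts at 3 dpa in the mutant and stood between 0 and 4 in each of the other libraries. The ionocyte gene ceacam1 rose from 0 to 72 counts, 17.7-fold higher when set against the floor, beside 4 and 1 in the wild type. CFTR, the chloride channel gene, was at 10 and 11. Of the 9 ionocyte marker IDs, 0 were at 0 counts at 3 dpa in the mutant, against 1 in the mutant uninjured, 2 in the wild-type uninjured and 1 in the wild-type 3 dpa library. A further RHCG ID (ENSDARG00000007080) had fewer counts in the mutant, 7 and 15, than in the wild type, 20 and 32. Carried-over gill or skin tissue and transcripts of the heart itself cannot be told apart here.

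The gene with the largest rise of all, mslna, for the mesothelial surface protein mesothelin, had 1 and 426 counts in the mutant and 10 and 12 in the wild type. Its log2 ratio of 6.87 (5.81 to 13.60) rested on the same mutant 3 dpa library that held the ionocyte genes, and whether it came with them was not tested. It is 1 of the 12 epicardial genes that rose. At 4-fold or more above each of the other libraries stood 18 genes in the mutant 3 dpa library, 6 of them on the ionocyte list, 7 in the mutant uninjured library, 15 in the wild-type uninjured library and 0 in the wild-type 3 dpa library. These were counted among genes past the mutant filter. With the filter level met in any of the 4 libraries, an alternative chosen after seeing the data, the numbers were 18, 7, 209 and 5 in the same order.

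**Figure D5:**
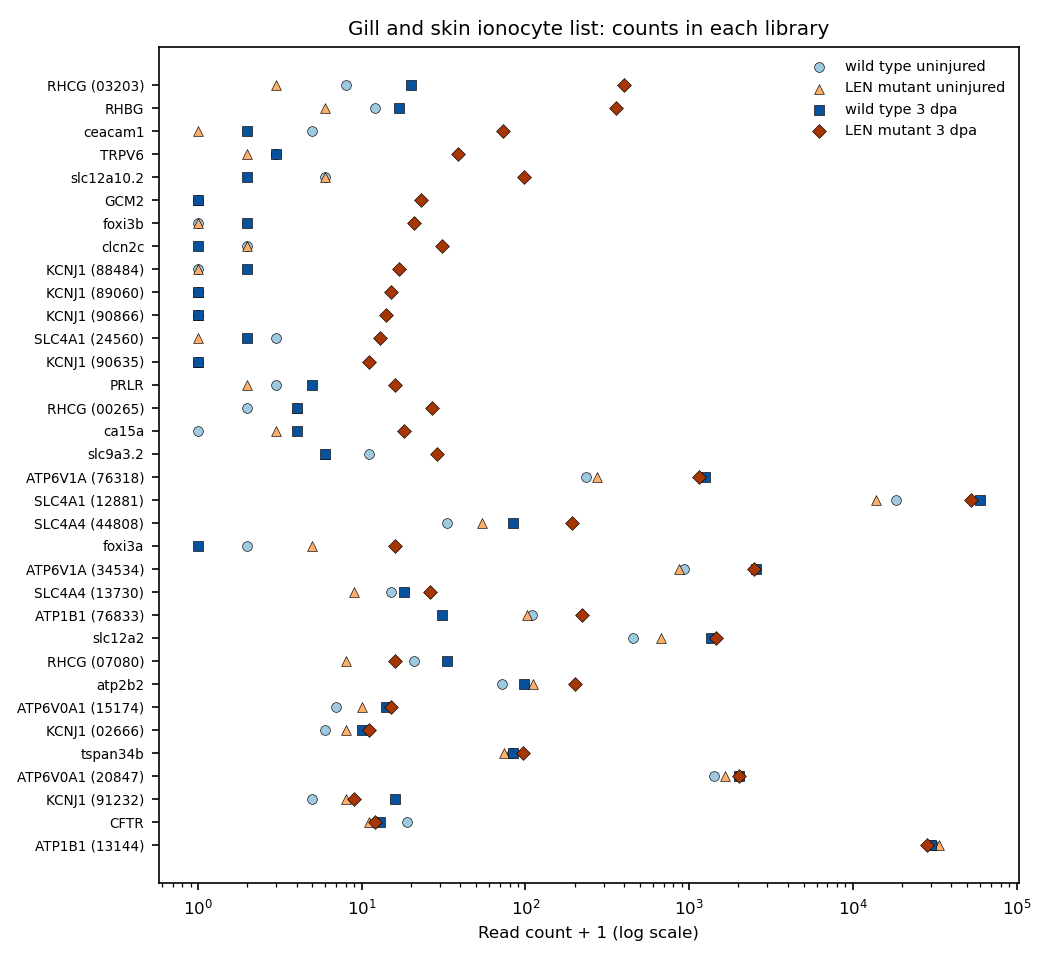
Read counts plus 1 (x axis, log scale) of genes reported here from the gill and skin ionocyte list, with at least 10 counts in 1 library, by library (circles and squares wild type uninjured and 3 dpa, triangles and diamonds LEN mutant uninjured and 3 dpa). RHCG (ENSDARG00000003203) and RHBG reach 397 and 358 counts at 3 dpa in the mutant and no more than 19 elsewhere.

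Other tissues were weighed by their lists in the same way. Of 38 keratinocyte and epidermal genes 9 rose (16 with total counts only) and 2 fell (median 0.51, wild type -0.51). The difference of ratios between genotypes was called higher in the mutant for 11 of the 38 and lower for 0. Over all genes it was called higher for 2.87% and lower for 1.41%. The keratin gene krt4 rose from 9150 to 77862 counts and from 12027 to 77893 in the wild type, and the basal epidermal marker genes krt5 and TP63 were at -0.43 and -0.69. Of 12 gill, pharyngeal and thymus structural genes 4 rose and 1 fell (median 0.54), and of 20 skeletal and smooth muscle genes 0 rose and 9 fell (2 with total counts only, median -0.85). Only 8 of 42 liver IDs passed the filter, 2 rising and 2 falling, and the median of -0.35 became 0.13 with total counts only. Transferrin, tfa, rose from 1151 to 16268 counts in the mutant, and went from 10356 to 14879 in the wild type. Without the members of these 5 lists, 2326 genes were called higher and 883 lower.

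Set against the wild type, whose 2 libraries are separate from the mutant pair, 1762 of the genes that rose in the mutant also rose in the wild type. They were 74.9% of the mutant rises and 83.3% of the wild-type rises. For falls the shared number was 426, or 47.4% of the mutant falls and 51.3% of the wild-type falls. Wild-type calls were counted here among genes past the mutant filter, which leaves out genes such as lepb. With the filter level met in any of the 4 libraries, 1805 rises were shared, 74.6% of the mutant and 82.5% of the wild-type rises, and 449 falls, 48.4% of the mutant and 40.2% of the wild-type falls. Opposite calls numbered 18, of which 13 rose in the mutant and fell in the wild type. The difference of the 2 injury log2 ratios was called for 683 genes, 458 of them higher in the mutant and 225 lower. Among these were 305 of the mutant rises and 99 of the mutant falls.

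The largest differences often lay in the uninjured libraries. Beside mslna (6.998) and RHCG (5.44), the complement gene c3a.1 had 138 and 1294 counts in the mutant and 2100 and 1291 in the wild type, a difference of 3.89. The wild-type uninjured library also held transcripts of the liver markers fabp10a (3748 counts) and apoa2 (5504 counts), whose part in the difference was not tested. DDIT4 (3.55) and tfa (3.27) followed, and TG, for thyroglobulin, with 6623 and 4714 counts in the mutant and 32378 and 2492 in the wild type, had a difference of 3.18. In c3a.1, DDIT4 and tfa the mutant uninjured library was low, and in TG the wild-type uninjured library was high. Among differences below 0, nppal, of the natriuretic peptide family, had 908 and 1018 counts in the mutant and 75 and 477 in the wild type, a difference of -2.502. Its 2 mutant counts were alike, and the wild type was low without injury. Genes without a symbol included ENSDARG00000116751, the largest fall, with 974 and 49 counts in the mutant and 41 and 0 in the wild type, and ENSDARG00000080128, with 2634 and 402 against 223 and 1137.

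Genes of the lists whose symbols differ only in a final a or b, taken here as gene copies, did not always move together. Whether such copies date from the teleost genome duplication was not tested. Of 61 pairs with both copies past the filter, 10 were called in the same direction, 25 had 1 copy called, 24 had neither and 2 had opposite calls. A pair with 1 copy called need not have moved apart. The log2 ratios of ier2a and ier2b were 1.07 and 0.87, and those of rorca and rorcb -0.76 and -1.01, at either side of the threshold. The opposite pairs were lifra and lifrb, given above, and rgs5a (the gene listed as RGS5) with rgs5b, which rose from 40 to 177 counts. The metalloprotease gene adam8a rose from 211 to 4279 counts (log2 ratio 3.89) while adam8b was at 2012 and 3471 (0.35). The liver-type carnitine transferase copies cpt1aa and cpt1ab were at 554 and 1024 (0.45) and 15932 and 7360 (-1.55). Reads shared between near-identical copies, such as the alpha globin genes, make the single values of those genes uncertain.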

How the data were processed

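RNA was sequenced from 4 heart libraries, 1 per group, with groups taken from the labels. The authors deposited raw counts per Ensembl gene, which were used as deposited. Alignment with HISAT2, counting with featureCounts and the GRCz11 build are per the submitters' processing notes. Versions, annotation release, strand setting and treatment of multiply mapped reads are not given in the sources used here, so overlapping and antisense genes cannot be told apart. Per the file headers, all libraries ran on lane 8.

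TMM factors came from edgeR 4.0.16 over all 4 libraries. Log2 ratios used a prior count of 2, and genes needed 1 scaled CPM in either mutant library. The 95% intervals were exact binomial ones on the pair of counts, or delta-method ones for differences between genotypes. At these depths 3 counts, the floor, equal 0.0856 to 0.0949 CPM. Where a library had 0 counts, the fold is against that floor and leaves out counting error in the other library. Intervals and floors cover counting error only. The procedure was tested on simulated data with counting error alone, which cannot show how much single libraries differ between hearts.

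Symbols came from a gene name table (29201 of 32520 IDs). Genes were matched to 43 lists, which overlap, and 3 cell type markers (mpx, hbba1 and mylpfa) matched no ID. The comparison, lists and rules were chosen with earlier results of these data known, and smyhc3 was dropped from the contractile list afterwards because it matched the same ID as vmhc. Named genes were lepb, lepa and lepr, the 12 largest rises and falls at 10 CPM or more, in each list the 2 highest and 2 lowest ratios and the 2 highest levels, the 6 largest and 6 smallest differences from the wild type, and the cell type markers. Genes from the ionocyte list other than these, and the gene copies, were named after their values were seen. Alternatives covered scaling (DESeq2 1.42.0 among them), prior count, filter, threshold and, added after seeing the data, lists of other tissues left out. Some genes selected by these rules are not reported here.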

Additional observations from a re-analysis of the deposited data

Results flagged for a closer look

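The injury log2 ratio of 18 genes was called in opposite directions in the 2 genotypes. Of these, 13 rose in the mutant and fell in the wild type, as did only c3a.1 of the 5 named here. With 1 library per group none of these differences was tested over hearts. The complement gene c3a.1 rose in the mutant and fell in the wild type, with a difference of 3.89 (counting interval 3.62 to 4.16). Its counts were 138 and 1294 in the mutant, uninjured and 3 dpa, and 2100 and 1291 in the wild type. The wild-type uninjured library also held the liver markers fabp10a (3748 counts) and apoa2 (5504 counts), and their part in the difference was not tested. The unconventional myosin gene myo15b fell in the mutant and rose in the wild type, with a difference of -3.19 and counts of 331 and 214 against 69 and 411. The remaining 3 genes carry no symbol and also fell in the mutant and rose in the wild type. ENSDARG00000080128 differed by -5.07, and the other two by -4.83 (11001 and 2364 counts against 849 and 5101) and by -3.09 (9870 and 5885 against 1615 and 8049).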

How the results depend on the processing

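The 3249 calls became 2114 at 5 CPM and 848 at a log2 ratio of 2. Rises went from 2351 to 1472 and 800 under those settings. Falls went from 898 to 332 with total counts only and to 48 at a log2 ratio of 2. Differences between genotypes went from 683 to 1261 with no filter, 243 at 5 CPM and 111 at a log2 ratio of 2. The other 34 alternative values of these counts stayed within 1.5 times, and no called gene that is named changed sign. Of the named genes, 26 lost their call with total counts only, 6 with a prior count of 10, 4 with upper-quartile factors and 1 each with DESeq2 size factors and with TMM over the mutant libraries. Among them were the opposite falls of myo15b and of the gene without a symbol at -3.09, with total counts only. List medians moved by 0.25 to 0.51 with total counts only, by -0.06 with DESeq2 size factors and by -0.15 to -0.12 with upper-quartile factors. They moved by -0.57 to 0.33 at 5 CPM, by -0.25 to 0.71 with no filter beyond 1 count and by -0.32 to 0.03 with a prior count of 10. Sign changes with scaling are given with the lists. No paired analysis was possible because each group has 1 library and the labels carry no replicate numbers. Of genes averaging under 1 CPM, 44.0% were called higher and 14.8% lower. These genes passed the filter only because their 2 mutant libraries were unequal, so nothing is read from those shares. Of genes at 1000 CPM or more, 11.9% were called higher and 28.7% lower. With 8 genes at 0 counts in 1 mutant library, setting them to the floor moved no list median. Only 2 lists held such a member, and these, RRM2 (5.46) and ceacam1 (5.01), lay far above their list medians of 1.76 and 0.68. The check thus says nothing of the other lists.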
